A study of Xenopus laevis with 8 samples.

Results

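The genes described here encode the working parts of the lysosome in frog foregut endoderm: subunits of the vacuolar proton pump (V-ATPase), cathepsin proteases and proteins of the lysosomal membrane. A probe set was included when a symbol in the array's name column began with atp6v or atp6ap, with cts and a letter, with lamp and a digit, or with hexa or hexb, or when it was 1 of 12 further symbols such as scarb2, npc1, psap and cd63. Cathepsin S (ctss) was left out. The rule found 8 of the 15611 probe sets on the array, and these stand for 7 genes. They are atp6v1g1, atp6v0a1, atp6v0d1 (with 2 probe sets) and atp6ap2 of the V-ATPase, ctsc of the cathepsins, and lamp1 and cd63 of the lysosomal membrane. Of the 12 further symbols only cd63 occurred as a name, and none of the 8 was named for a sugar- or lipid-cleaving hydrolase. Many probe sets of this array carry a clone name, a LOC number or an outdated symbol. Looking those names up in the RefSeq gene table led to 17 more probe sets for 10 genes, 9 of them not among the 7. These were added after their names had been seen and are called RefSeq-named below. Together the 25 probe sets stand for 16 genes.

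RNA came from foregut endoderm explants of Xenopus laevis, the African clawed frog, which were cultured over stages 15 to 23. In 4 samples, called with mesoderm here, the explant stayed intact, and its endoderm was separated only at the end of the culture. In the other 4 samples, called alone, the endoderm had been cultured without mesoderm. Each condition has a sample labelled set 1, set 2, set 3 and set 4, and the labels do not say what a set shared. No strain, age of the parents, genotype or added agent is given for either condition. The time at which the endoderm was separated also differed between the conditions, so its part cannot be told apart from that of the mesoderm. These were bulk samples, in which fewer cells of a type and less RNA per cell cannot be told apart.

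Lysosomes are acidic compartments in which proteins, lipids and sugars are broken down. The V-ATPase acidifies them: its cytosolic V1 sector splits ATP, and this drives the rotation of the membrane-bound V0 sector that carries protons into the lumen. Cathepsins are proteases, most of which work at this low pH, while proteins such as lamp1 line the inner face of the membrane. In the early frog embryo the yolk-rich endoderm lives on its yolk platelets, which are degraded after they become acidic. In frog embryos the V-ATPase is also known for its part in left-right patterning.

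Each value is the RMA intensity of a probe set, which summarises its probes after background correction and quantile normalization, and is given on the log2 scale. Probe sets bind with different strength, so a transcript's amount is read only by comparing a probe set with itself in other samples. Mean levels serve elsewhere only to sort probe sets by brightness, and sums of intensities only to compare samples. Differences are with mesoderm minus alone, so a log2 difference of 1 is 2-fold. In limma, the fit without set as a block was the main one, and the fit with set as a block is called within sets. Calls required an adjusted p (Benjamini-Hochberg over the 15491 tested probe sets) under 0.05. Arrays of the same set deviated together from the mean of their condition, with correlations of 0.84, 0.85, 0.69 and 0.32 in sets 1 to 4. The SD of the differences over all tested probe sets was 0.25, 0.31, 0.33 and 0.53 in these sets, so the 2 arrays of set 4 differed most. Of 13 listed endoderm markers, 9 were measured, and 10 of their 11 probe sets lay above the 95th percentile of the 44 negative control probe sets (5.88), which is used as the limit for dim probe sets.

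The pump, protease and membrane genes of the rule were detected in every sample and none passed the test between the conditions. All 8 probe sets averaged above the dim limit. None was called in either fit, where 0.387% of all tested probe sets were called within sets and 0% without the block. The median of their mean differences was -0.07, against 0.01 over all tested probe sets, with 3 of the 8 above 0 and 5 below it. Every 95% interval of the 8 within sets lay inside a 2-fold change in either direction, with bounds between -0.88 and 0.38. In the fit without the block, 6 of the 8 did, while the intervals of atp6v1g1 (-1.30 to 0.37) and atp6ap2 (-1.31 to 0.61) reached past a 2-fold decrease. None of the 8 had groups that did not overlap, against 1.89% of all probe sets. The same direction in all 4 sets was seen in 3 of the 8, against 18.7% of all probe sets. At an unadjusted p under 0.05, 1 of the 8 passed within sets, where 9.35% of all probe sets did, and 0 of the 8 without the block, where 2.48% did.

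**Figure D1:**
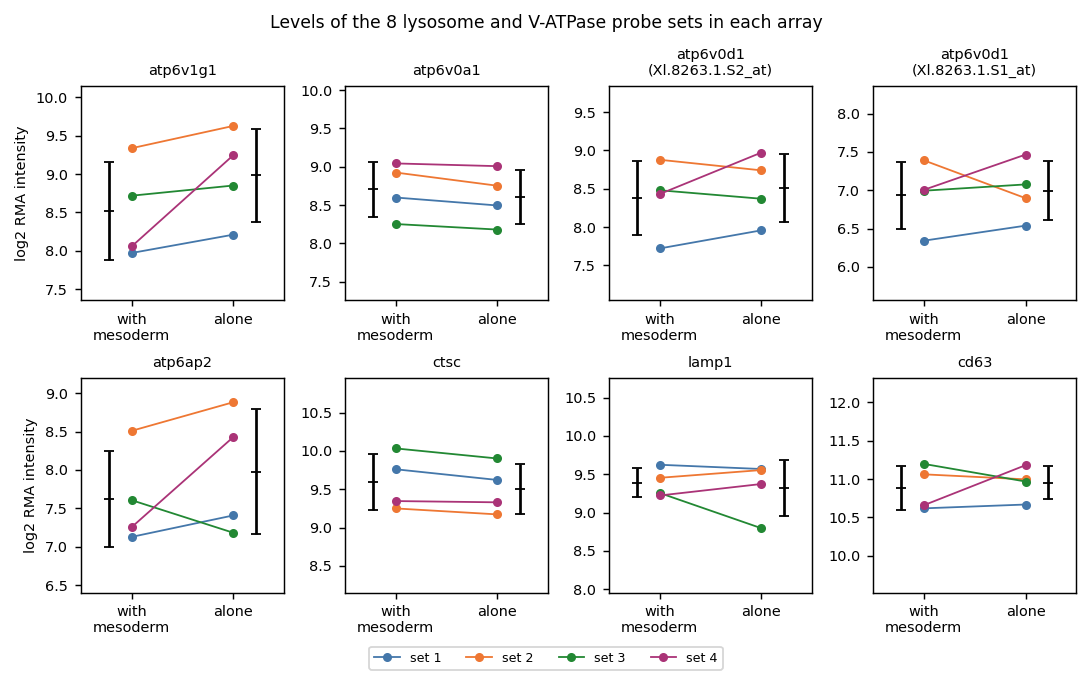
Log2 RMA intensity (vertical axis) of the 8 rule probe sets in each of the 8 arrays, with mesoderm on the left and alone on the right of each panel. Lines join arrays of the same set, bars show the mean ± SD of 4 arrays, and every vertical axis spans the same range around its own mean. The lines of atp6v0a1 and ctsc run nearly parallel, while the set 4 lines of atp6v1g1 and atp6ap2 run up to the right, with differences of -1.19 and -1.18.

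Subunit G of the V1 sector, atp6v1g1, which is part of the stalk that holds V1 in place, had the largest difference of the 8. Its level was 7.97, 9.34, 8.72 and 8.06 with mesoderm in sets 1 to 4, against 8.21, 9.63, 8.85 and 9.25 alone. It was lower with mesoderm in all 4 sets, but the groups overlapped because the sets lay far apart. The mean difference was -0.46 ± 0.49 (SD of 4 set differences), with a 95% interval of -0.88 to -0.04 within sets, an unadjusted p of 0.0342 and an adjusted p of 0.470 by limma. Set 4 decided its size: the set 4 difference was -1.19, the other 3 lay between -0.29 and -0.13, and the mean without set 4 was -0.22.

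The V0 sector was represented by its subunits a and d. Subunit a, atp6v0a1, spans the membrane beside the rotor and forms part of the proton path. It had levels of 8.60, 8.93, 8.25 and 9.04 with mesoderm, against 8.50, 8.75, 8.18 and 9.01 alone. The difference was small and of one sign, between 0.04 and 0.17 in each set, with a mean of 0.10 ± 0.06 (SD of 4 set differences) and an interval of -0.15 to 0.34. It was not called (adjusted p = 0.856 within sets, limma). Differences between sets made up 97.0% of its squared deviations over the 8 arrays and the condition 2.38%.

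Subunit d, atp6v0d1, joins the rotor to the central stalk and had 2 probe sets. The first, whose ID ends in S2_at, had levels of 7.72, 8.88, 8.48 and 8.43 with mesoderm, against 7.96, 8.74, 8.37 and 8.97 alone. The second, ending in S1_at, which RefSeq assigns to the L copy of the gene, had 6.34, 7.39, 6.99 and 7.01 with mesoderm, against 6.54, 6.90, 7.08 and 7.47 alone. L and S name the copies that many Xenopus laevis genes kept after the genome of this species was duplicated. Both were lowest in set 1 in both conditions, and their differences of -0.13 ± 0.32 and -0.06 ± 0.40 (SD of 4 set differences) took both signs over the sets.

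The accessory protein atp6ap2, also known as the prorenin receptor, binds the pump and is needed for Wnt signalling in Xenopus embryos. Its level was 7.13, 8.51, 7.61 and 7.25 with mesoderm, against 7.41, 8.88, 7.18 and 8.43 alone. It was lower with mesoderm in sets 1, 2 and 4 and higher in set 3. The mean difference of -0.35 ± 0.66 (SD of 4 set differences) had an interval of -0.87 to 0.17 and came mostly from set 4. There the difference was -1.18, and without set 4 the mean was -0.08. Between sets, its mean level ranged over 1.43, a 2.69-fold range, more than any other of the 8, and set 2 was highest in both conditions.

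Cathepsin C (ctsc), a dipeptidyl peptidase that activates other proteases by trimming them, was higher with mesoderm in each set by a small amount. Its level was 9.76, 9.25, 10.03 and 9.35 with mesoderm, against 9.62, 9.17, 9.90 and 9.33 alone. The mean difference was 0.09 ± 0.06 (SD of 4 set differences) with an interval of -0.15 to 0.34 and an adjusted p of 0.865 within sets by limma. As with atp6v0a1, nearly all of its spread lay between sets (97.1% of squared deviations), but the order of the sets was not the same: ctsc was highest in set 3, where atp6v0a1 was lowest.

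The membrane proteins lamp1 and cd63 did not differ between the conditions in one direction. The heavily glycosylated lamp1, a major protein of the lysosomal membrane, had levels of 9.62, 9.45, 9.26 and 9.22 with mesoderm, against 9.57, 9.56, 8.80 and 9.37 alone. Its mean difference was 0.07 ± 0.28 (SD of 4 set differences). The tetraspanin cd63, which sits in late endosomes and in the vesicles they release, had 10.62, 11.06, 11.20 and 10.66 with mesoderm, against 10.67, 11.00, 10.97 and 11.18 alone. Its mean difference was -0.07 ± 0.32, and set 4 again gave the lowest of the 4 set differences, -0.52.

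The RefSeq-named probe sets added more subunits of the pump, with mean differences between -0.20 and 0.19. Subunit A or its relative (atp6v1a or atp6v1al, which the name does not separate) is or resembles the catalytic part of V1. Its mean difference of 0.00 joined -0.18, -0.24 and -0.17 in sets 1 to 3 with 0.59 in set 4. Subunit B, atp6v1b2.S, forms the V1 ring with subunit A, and its 2 probe sets had -0.13 and 0.19. Subunit C, atp6v1c1.L, bridges V1 and V0 when the pump assembles, and its 4 probe sets lay between -0.20 and 0.08. The accessory protein atp6ap1.2.S, a subunit of the assembled pump in other vertebrates, had 2 probe sets at 0.07 and 0.06. Over all 14 V-ATPase probe sets, 6 were above 0 and 8 below, with a median of -0.03 and none called in either fit.

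Among the other RefSeq-named proteases, cathepsin B (ctsb.L), a cysteine protease, had 10.30, 10.70, 11.13 and 10.65 with mesoderm, against 10.29, 10.68, 11.11 and 11.12 alone. In sets 1 to 3 its difference was at most 0.03, and in set 4 it was -0.46. The serine carboxypeptidase ctsa.L, which protects other lysosomal enzymes, had a mean difference of -0.01 and the same contrast, with 0.09 to 0.21 in sets 1 to 3 and -0.49 in set 4. For the second cd63 probe set, cd63.L, the levels were 11.37, 11.91, 12.25 and 10.99 with mesoderm, against 11.41, 12.18, 11.98 and 12.16 alone, so that set 4 with mesoderm was the lowest array. The only sugar- or lipid-cleaving hydrolase among the RefSeq-named probe sets, glb1.L (beta-galactosidase), lay below the dim limit, with a mean difference of -0.08.

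**Figure D2:**
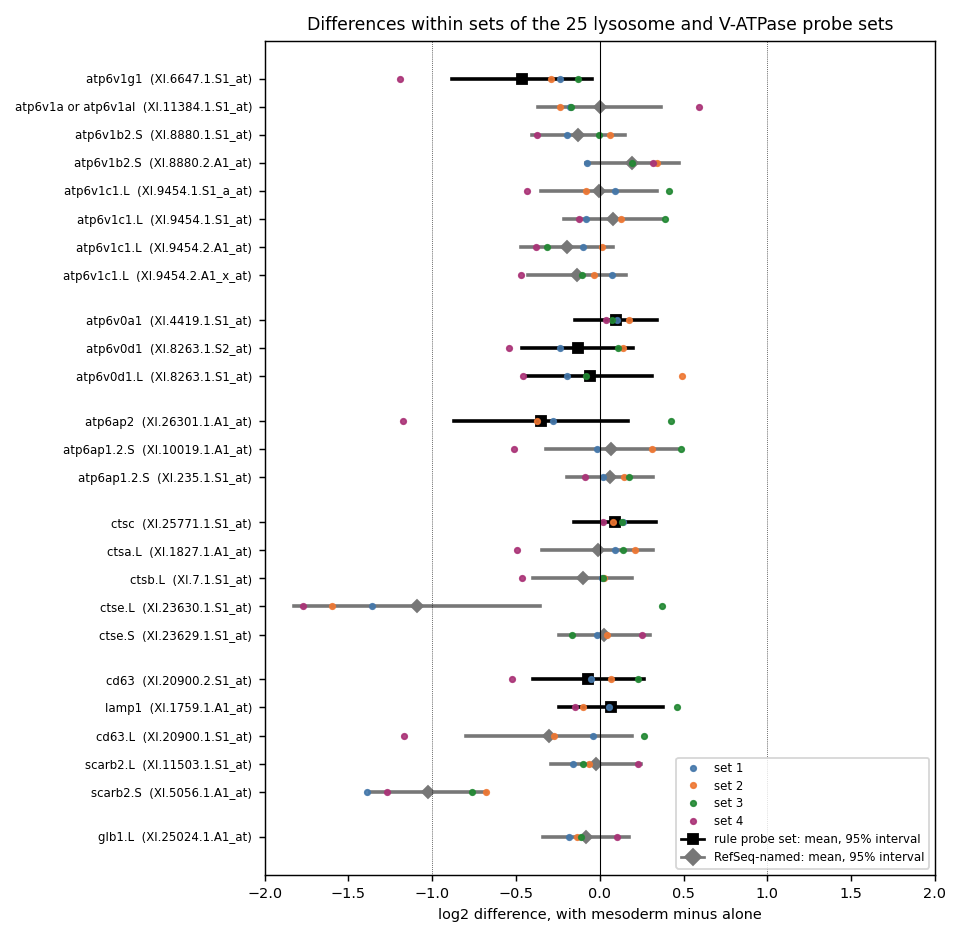
Log2 difference, with mesoderm minus alone (horizontal axis), for the 25 probe sets, grouped from top to bottom as V1, V0, accessory proteins, cathepsins, membrane proteins and hydrolase. Coloured points are the 4 sets, squares (rule) and diamonds (RefSeq-named) are means with 95% intervals within sets, and dotted lines mark a 2-fold change. Only scarb2.S, with all 4 points at -0.68 or below, and ctse.L, with 3 points at -1.36 or below and set 3 at 0.37, have intervals that reach past a 2-fold change.

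A single probe set among the 25 was called: scarb2.S, lower with mesoderm. This gene encodes LIMP-2, the membrane protein that carries beta-glucocerebrosidase to the lysosome in mammals. The probe set had levels of 7.13, 7.22, 6.65 and 6.97 with mesoderm, against 8.52, 7.90, 7.42 and 8.24 alone. Every sample with mesoderm lay below every sample alone. Groups without overlap, in either direction, were seen in 1 of the 25 (4.0%), against 1.89% of all tested probe sets. The differences of scarb2.S in sets 1 to 4 were -1.39, -0.68, -0.76 and -1.27. Their mean was -1.02 ± 0.36 (SD of 4 set differences), with a 95% interval of -1.37 to -0.68 within sets. The level alone was 2.03-fold that with mesoderm. Within sets the adjusted p was 0.0479 by limma, and 0.129% of all tested probe sets were called lower. The call was close to the threshold and was not made without the block (adjusted p = 0.617). Within sets the adjusted p was 0.0677 after a further quantile normalization, 0.0707 after cyclic loess, 0.0559 without dim probe sets, and 0.244, 0.197 and 0.0991 without set 1, 2 or 3, while it was 0.00987 without set 4.

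The other copy of the gene, scarb2.L, had nearly equal levels in the conditions. They were 7.19, 7.47, 7.06 and 7.32 with mesoderm, against 7.35, 7.53, 7.16 and 7.09 alone. The mean difference was -0.02 ± 0.17 (SD of 4 set differences), with an interval of -0.29 to 0.25. The difference of scarb2.S was lower than that of scarb2.L in each of the 4 sets, with gaps of -1.23, -0.62, -0.67 and -1.50 in sets 1 to 4. An exact two-sided sign-flip permutation test of this gap gave p = 0.125, the smallest that 4 sets allow. Any 4 gaps of one sign give this p, so the test adds nothing to the signs. It was chosen after the values had been seen and was 1 of 2 such tests. The other, of ctss against ctsc, gave the same p.

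**Figure D3:**
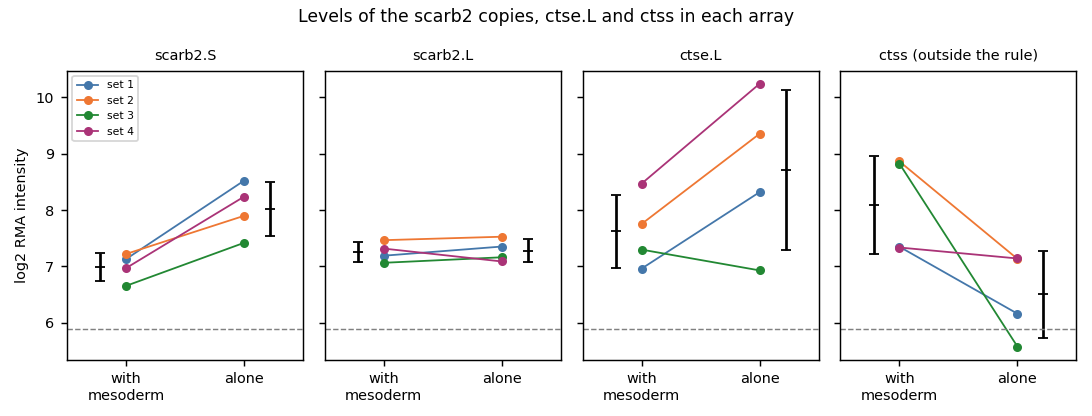
Log2 RMA intensity (vertical axis) of scarb2.S, scarb2.L, ctse.L and ctss in each array, with mesoderm on the left and alone on the right of each panel. Lines join arrays of the same set, bars show the mean ± SD of 4 arrays, and the dashed line is the dim limit of 5.88. The groups of scarb2.S do not overlap, those of scarb2.L do, and ctse.L and ctss differ in most sets, with set 3 of ctse.L and set 4 of ctss closest to level.

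Cathepsin E (ctse.L, named ce1 in the array's file), an aspartic protease known from the gut lining of vertebrates, had the largest mean difference of the 25 but was not called. Its level was 6.96, 7.75, 7.30 and 8.47 with mesoderm, against 8.32, 9.35, 6.93 and 10.24 alone. It was lower with mesoderm in sets 1, 2 and 4, with differences of -1.36, -1.60 and -1.77, and slightly higher in set 3, with 0.37. The mean of -1.09 ± 0.99 (SD of 4 set differences) had an interval of -1.82 to -0.36, an unadjusted p of 0.0089 and an adjusted p of 0.277 within sets by limma. Set 3 alone had the opposite sign, so leaving it out had to enlarge the mean (-1.58, adjusted p = 0.0224 within sets), which is no support for a call. Without set 1, 2 or 4 the adjusted p was 0.72, 0.87 and 0.21. In the fit without the block it was 0.9999, with an interval of -2.52 to 0.34. The means of the sets ranged over 2.24 for ctse.L, and its level alone was lowest in set 3 and highest in set 4. The other copy, ctse.S, averaged 3.52 with mesoderm and 3.49 alone, below the dim limit, so no difference can be read from it.

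With the RefSeq-named probe sets included, 9 of the 25 were above 0 and 16 below, with a median of -0.06. A mean difference over 0.5 in size was seen in 2 of the 25 (8.0%), scarb2.S and ctse.L, against 3.14% of all tested probe sets. At an unadjusted p under 0.05 within sets, 3 of the 25 passed (12.0%), against 9.35% of all tested probe sets. Of the 17 RefSeq-named probe sets, 15 had intervals inside a 2-fold change.

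Much of the spread of these genes was between sets, and much of the tilt towards lower values with mesoderm was in set 4. The median difference of the 8 rule probe sets was -0.12, 0.07, 0.12 and -0.49 in sets 1 to 4, with 6 of the 8 below 0 in set 4. Without set 4 the median over the 8 turned to 0.08, and over all 25 it was 0.00. In set 4 the values also moved with the level of a probe set over the whole array. The median set 4 difference was 0.26, 0.18, -0.09 and -0.22 when all tested probe sets were split into 4 bins of equal size from the lowest to the highest mean level, and 0.36 over the negative controls. Of the 8 rule probe sets, 5 were in the highest bin. The 3 lowest of the 8 in set 4 were atp6v1g1, atp6ap2 and the S2 probe set of atp6v0d1 (-0.54). Of all tested probe sets, 2.41%, 2.52% and 15.3% were as low in set 4 as these 3. After cyclic loess, which evens out differences that follow the level, the set 4 median of the 8 was -0.31 and that of all 25 was -0.22, against -0.43 before. The set 4 difference of cd63 was then -0.25, that of lamp1 turned to 0.09, and those of atp6v1g1 and atp6ap2 were -0.99 and -1.08. The part of the level trend in the set 4 values was not tested further.

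**Figure D4:**
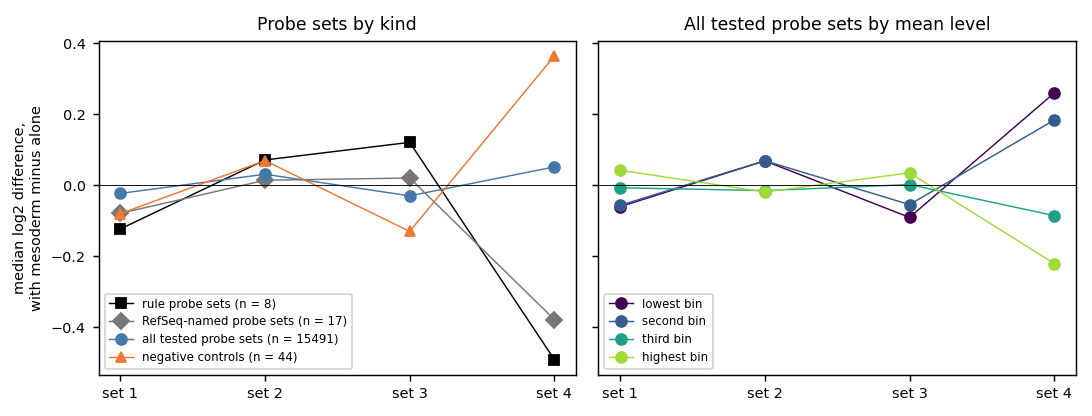
Median log2 difference, with mesoderm minus alone (vertical axis), in each set (horizontal axis). Left: rule probe sets, RefSeq-named probe sets, all tested probe sets and negative controls. Right: all tested probe sets in 4 bins of mean level. In set 4 the rule probe sets lie at -0.49 and the negative controls at 0.36, and the bins spread over 0.26 to -0.22, while the bins of sets 1 to 3 stay within 0.09 of 0.

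Genes that act beside these in the lysosome were also counted, from lists that the rule did not use. Of 52 other lysosomal genes, 14 were measured by 19 probe sets, with 10 above 0, 9 below and a median of 0.03. The most negative was rnaset2, a lysosomal RNase, at -0.34 ± 0.17 (SD of 4 set differences), lower with mesoderm in all 4 sets but not called (adjusted p = 0.389 within sets, limma). The sulfatase gns had a difference of -0.01, and the brighter probe set of hyal2, a hyaluronidase, had 0.30. For sorting to the lysosome, 11 of 33 genes were measured by 21 probe sets, 10 above 0 and 11 below, with a median of 0.00. The brightest probe sets there belonged to ap1g1, a subunit of the AP-1 sorting coat, at -0.07, and m6pr, a mannose 6-phosphate receptor, at 0.14. Of 32 autophagy genes, 8 were measured by 15 probe sets, 9 above 0 and 6 below, with a median of 0.03. There gabarapl1 and atg16l1, which act in building the autophagosome, were at 0.07 and 0.03 for their brightest probe sets, and tfe3, a transcription factor that switches on lysosomal genes in mammals, was at -0.29. The cholesterol and scavenger relatives of scarb2, npc1 and npc2 had 4 of 14 genes and 6 probe sets, with a median of 0.12, and apoe, a carrier protein of lipid transport, was at -0.13. Of the cathepsin inhibitors, 2 of 9 were measured, cst3 at -0.26 and cst7 at -0.08. Both were lowest in set 4, at -1.19 and -0.62, and without set 4 their means turned to 0.06 and 0.10. Leaving out set 4 also turned the sign of gns (0.05), ap1g1 (0.00), gabarapl1 (-0.08) and atg16l1 (-0.09), and gave 0.02 for m6pr and -0.15 for tfe3. No probe set of these 5 lists was called in either fit.

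Cathepsin S (ctss), which the rule left out, is known from antigen-presenting and other myeloid cells. Its level was 7.35, 8.86, 8.82 and 7.34 with mesoderm, against 6.16, 7.13, 5.58 and 7.14 alone. The groups did not overlap, as was so for 1.89% of all tested probe sets. The mean difference of ctss was 1.59 ± 1.27 (SD of 4 set differences). It was not called within sets (adjusted p = 0.218, limma) or without the block (adjusted p = 0.9999). Within sets it was called once set 4, with its smallest difference, was left out (2.05, adjusted p = 0.00758). It was not called without set 1, 2 or 3 (adjusted p = 0.51, 0.68 and 0.32). Of 20 listed myeloid markers, ctss among them, 10 were measured by 11 probe sets. This list was drawn up with earlier results of these data known, so its counts give no independent support. All 11 had mean differences above 0, 4 were called higher within sets (lcp1, prtn3, csf2rb and fcrg), against 0.258% of all tested probe sets, and 7 were not called. The adjusted p of these 4 within sets was 0.0490, 0.0490, 0.0292 and 0.0415 (limma), close to the threshold. Without the block 0 of the 11 were called, and the adjusted p of the 4 was 0.447, 0.904, 0.171 and 0.309. The summed linear intensity of the 11 was 1919 to 4617 with mesoderm and 572 to 1693 alone. Of this sum mpo, itself not called (adjusted p = 0.174 within sets, limma), made up between 21.8% and 62.4%. Without mpo the sum was 854 to 1737 with mesoderm and 447 to 713 alone. Of the 11, 6 averaged above the dim limit over all arrays. Of these, csf2rb and prtn3 passed it only through the samples with mesoderm, with means alone of 5.60 and 5.58. In set 3 these 6 differed by 1.05 (csf2rb) to 3.87 (mpo), with ctss at 3.25. Alone in set 3, ctss (5.58), lcp1 (5.57), prtn3 (4.74) and csf2rb (5.75) lay below the limit, so the sizes of their differences there are uncertain. In set 4 the 6 differed by 0.18 (mpo) to 1.10 (fcrg), with ctss at 0.19. The other 5, itgb2 and ptprc among them, averaged at or below the limit, so no difference can be read from them. Markers of red cells and endothelium had 12 of 12 probe sets above 0, 5 of them at or below the dim limit. Their summed intensity was 976 to 1193 with mesoderm and 743 to 948 alone. The largest difference among them was that of lmo2 (0.71, adjusted p = 0.139 within sets, limma), while hba1 and hbd were at 0.03. Those of muscle and notochord had 6 of 6 above 0, 3 of them at or below the dim limit. Their sums were 608 to 1257 with mesoderm and 575 to 1013 alone. In these sums the probe sets above the limit, those of shh and of the gene not, weighed most, while myod1, myf5 and tnnc2 lay below it. Cardiac and lateral plate markers had 16 of 20 above 0, with 10 of the 20 at or below the dim limit. Their sums were 1753 to 2417 with mesoderm and 1145 to 2077 alone. Epidermis and ionocyte markers had 7 of 10 above 0, with 6 of the 10 at or below the dim limit, and hatching and cement gland markers 1 of 2. Endoderm markers had 4 of 11 probe sets above 0 and 7 below, with a median of -0.05. Their sums were 18819 to 21730 with mesoderm and 18066 to 24152 alone, and darmin, the brightest of these probe sets, weighed most in them. For comparison, 7991 of the 15491 tested probe sets and 34 of the 44 negative controls were above 0. Apart from the myeloid list, no probe set of these lists was called. None of the 25 lysosomal probe sets was called higher with mesoderm, but with 0.258% of all tested probe sets called higher, 25 are too few to read this. The part of myeloid or other cells in the levels of ctsc, ctsb.L or cd63 was not tested.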

How the data were processed

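Affymetrix arrays of 8 samples were used. The deposited values are linear RMA intensities per probe set, which the authors made with RMA per the labels; its version is not given in the sources used here. The annotated table and the series matrix agreed in 124888 of 124888 cells. No per-sample column was left unused (0). Log2 was taken of each deposited intensity, and 15491 probe sets were tested after 120 controls were left out. There are no counts behind an array value, so precision is limited by having 4 arrays per condition.

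Gene names came from the array's name column through symbol, gene ID or synonym in the RefSeq gene table, which gave 5490 tested probe sets 1 gene name. Limma 3.58.1 (lmFit, eBayes) in R 4.3.3 compared the conditions with and without set as a block, with Benjamini-Hochberg adjustment. The sets were taken to pair the arrays because every correlation of deviations was above 0.1. Both fits were tested on simulated data for 15491 probe sets: a log2 change of 1 was recovered in 34% of cases without the block and 67% within sets, and a change of 2 in 90% and 98%. Among the unchanged probe sets, 0 were called without the block and 6 within sets. The simulated noise of a probe set had the same spread in every array, so the larger differences of set 4 were not part of it. Where nothing says that samples are separate cultures or animals, p-values without the block measure the spread between these samples. Those within sets measure the spread of the differences over these sets.

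The text names probe sets that were called, up to 6 rises and 6 falls of one sign in 4 sets (4 probe sets met this), the 6 with the highest mean level, the 4 that varied most between sets, copies that differed by over 0.5, and 1 or 2 of each role. For related lists it names called probe sets and the 2 brightest genes, of which 1 is not reported here; rnaset2 and tfe3, and members outside this rule, were named after their values were seen. Members and lists were chosen with earlier results of these data known. Alternatives were other thresholds, quantile, cyclic loess and median normalization, a dim filter, trended and robust variance, array weights, 1 value per gene, and each set or array left out.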

Additional observations from a re-analysis of the deposited data

Results flagged for a closer look

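Among 75 groups of 4 values (levels per condition and differences over sets) of the 25 probe sets, 3 held a value far from the other 3 by Dixon's criterion, and all 3 were differences in set 4. Chance flags about 1 in 20 groups. For ctsb.L the set 4 difference was -0.46, while the other sets lay between 0.01 and 0.03. For atp6v1g1 it was -1.19, against -0.29 to -0.13 in the others. For atp6v1a or atp6v1al it was 0.59, in the other direction, against -0.24 to -0.17.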

How the results depend on the processing

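The count of called rule probe sets was 0 under every setting run, in both fits. In the main runs, 0% of all tested probe sets were called without the block and 0.387% within sets, so 8 are too few to read this. The median difference of the rule probe sets was -0.07 with all sets. It lay between -0.17 and 0.08 with the sets left out in turn, and was above 0 only without set 4. The SD of the set medians, set 4 among them, was 0.28, so staying within it is no test of stability. The sets pair the arrays: with the replicate block the count over the 25 probe sets was 1 (scarb2.S), against 0 without it, and with a random block it was also 1 (adjusted p = 0.0187). Within sets that count was 0 at an adjusted p under 0.01, after quantile normalization, after cyclic loess and without dim probe sets, and it ranged over 0 to 1 when a set or array was left out. Without set 3 the probe set called was ctse.L. Leaving out an array within sets amounts to leaving out its set. Over 11 alternatives within sets (1 of them the identical series matrix), scarb2.S passed in 5, with differences of -1.14 to -0.90 and adjusted p of 0.0021 to 0.244. Array weights also called ctss (adjusted p = 0.00587). The block changed no other call among the 25. All probe sets called within sets numbered 60, with 0 to 275 when a set was left out and 1 to 430 under the other alternatives. The cause of these changes was not tested. Dim probe sets (ctse.S, glb1.L) carry no readable difference.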
